A study of Rattus norvegicus with 44 samples.

Results

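In rat kidney, 6 genes known as fat cell transcripts were read: *Ucp1*, *Cidea*, *Cfd*, *Adipoq*, *Fabp4* and *Plin1*. They were taken as every probe set for which the platform annotation gives 1 gene and that gene is one of the 6, older synonyms allowed, which gave 7 probe sets (2 for *Plin1*) of 31042 and 6 genes of 14217 named on the array. The genes were chosen by their kidney values, which were already known to differ between arrays, so those values are given as a description, with no p-value. The arrays come from male rats of the outbred Harlan Sprague Dawley stock, 6 to 8 weeks old at assignment and on NTP-2000 diet, which received crude 4-methylcyclohexanemethanol (MCHM), an industrial alcohol used in washing coal, in corn oil by gavage at 5 mL/kg on 5 days. Tissue was taken on the next day. Vehicle rats received corn oil alone (0 mg/kg), and the other groups received 0.1, 1, 10, 100, 300 or 500 mg/kg of MCHM. Kidney has 17 arrays, 3 each at 0, 300 and 500 mg/kg and 2 at each other dose, and liver, set beside it, has 27, 4 per dose except 3 at 0.1 mg/kg. Samples within a group are biological replicates by their titles. All values are log2 expression values, so that 1 unit is a doubling, and SD is between the arrays of a group. Whether a probe set lay above background is unknown here, so a low value is given as a level and not as presence or absence.

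Fat cells store triglyceride in a droplet coated by perilipins and release hormones and complement factors into the blood. Brown fat cells also burn that fat for heat, through an uncoupling protein in the inner mitochondrial membrane. The rodent kidney lies in a fat depot that holds both white and brown fat cells. The labels do not say how the kidneys were trimmed or which piece was taken, so the place these transcripts came from was not tested. In such bulk RNA, fewer cells of a type and less of a transcript per cell cannot be told apart.

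*Ucp1* encodes the uncoupling protein of brown fat mitochondria and *Cox8b* a muscle and brown fat subunit of cytochrome oxidase. *Cfd* encodes adipsin, a complement protease of fat cells, and *Adipoq* the hormone adiponectin. These 4 genes separate the kidney arrays in 2 ways, described below, which differ in vehicle replicate 2 alone. The 250 bases before each transcription start are therefore shown as RefSeq gives them for the rat build GRCr8. The capitals mark a TATA box (TATAAA) or a CCAAT box (CCAAT), searched on both strands, so that CCAAT on the other strand reads as ATTGG.
Ucp1: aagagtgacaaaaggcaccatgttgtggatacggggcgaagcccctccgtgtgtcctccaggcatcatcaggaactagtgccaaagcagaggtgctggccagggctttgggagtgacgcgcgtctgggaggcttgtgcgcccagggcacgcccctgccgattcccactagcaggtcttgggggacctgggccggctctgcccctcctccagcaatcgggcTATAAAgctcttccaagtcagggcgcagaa
Cox8b: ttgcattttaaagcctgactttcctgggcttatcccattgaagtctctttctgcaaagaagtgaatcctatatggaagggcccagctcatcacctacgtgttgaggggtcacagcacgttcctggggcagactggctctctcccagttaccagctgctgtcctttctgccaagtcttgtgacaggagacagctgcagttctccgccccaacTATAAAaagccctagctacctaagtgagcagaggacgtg
Cfd: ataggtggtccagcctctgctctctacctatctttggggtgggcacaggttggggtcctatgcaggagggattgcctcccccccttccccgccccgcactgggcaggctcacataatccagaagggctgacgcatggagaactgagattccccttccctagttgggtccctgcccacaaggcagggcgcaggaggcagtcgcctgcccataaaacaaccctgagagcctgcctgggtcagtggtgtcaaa
Adipoq: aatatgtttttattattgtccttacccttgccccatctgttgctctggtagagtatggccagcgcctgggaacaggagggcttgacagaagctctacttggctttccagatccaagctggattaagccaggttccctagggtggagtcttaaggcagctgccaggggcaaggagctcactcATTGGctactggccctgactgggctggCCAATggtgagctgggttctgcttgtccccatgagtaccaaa
The *Ucp1* stretch is chr19:41721422-41721671 and that of *Cox8b* chr1:205408274-205408523, while *Cfd* lies at chr7:10465497-10465746 and *Adipoq* at chr11:91240170-91240419, all on the minus strand. TATAAA began 30 bases before the start of *Ucp1* and 39 before that of *Cox8b*, and was not in the windows of *Cfd* and *Adipoq*. It was also not in the window of *Cidea*, which was high in the same 4 arrays as *Ucp1*, nor in those of *Plin1* and *Thrsp*. *Fabp4* had no entry. It was found in 12.93% of 33469 RefSeq promoters of the same length. *Adipoq* held CCAAT once on each strand, a motif found in 34.02% of promoters. CACGTG, the E-box found in 5.593% of promoters, was in none of the 4 windows. These are matches of letters only, and no binding was measured.

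The kidney arrays carried kidney transcripts throughout: the median of 8 proximal tubule markers lay between 11.00 and 11.76 in all 17. An array given as kidney, 1 mg/kg replicate 1, went against its neighbours, since the median of 8 hepatocyte markers was 7.38 there and at most 4.88 in the other arrays; albumin (*Alb*) read 11.06 and transthyretin (*Ttr*) 9.32, against medians over kidney arrays of 4.62 and 4.95. Vehicle replicate 2 went against the male label in part, because *Xist*, the RNA of an inactivated X chromosome, read 6.95 there and 2.68 to 3.02 in the other 16 kidney arrays, while Y-linked *Eif2s3y* read 10.02, against 9.35 to 9.94. The liver array of the same group and number showed the same pattern, with *Xist* at 8.25 against 2.79 to 3.27 in the other 26. *Xist* and *Eif2s3y* were chosen after their values were seen. Pairs of kidney arrays correlated at r = 0.984 to 0.996 over probe sets, and 0 pairs were identical.

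The fat transcripts were high in 4 kidney arrays, 1 each from the vehicle, 1, 300 and 500 mg/kg groups, and a further vehicle array carried part of them. The thermogenic genes come first. *Ucp1* read 4.61, 4.50 and 9.17 in the 3 vehicle kidneys, 4.57 and 4.59 at 0.1 mg/kg, 4.80 and 11.47 at 1 mg/kg, 4.45 and 4.39 at 10 mg/kg, 4.78 and 5.09 at 100 mg/kg, 4.44, 9.86 and 5.28 at 300 mg/kg; the 3 kidneys given 500 mg/kg read 4.58, 9.86 and 4.76, in the order of the replicates. Values lay either at 9.17 or above, in vehicle replicate 3 and in replicate 2 at 1, 300 and 500 mg/kg, or at 5.28 or below, in the other 13, a gap of 3.90. The 13 low kidneys lay between 4.39 and 5.28 and the liver arrays between 4.32 and 5.24.

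*Cidea*, which encodes a lipid droplet protein abundant in brown fat, was high in the same 4 arrays as *Ucp1*. It read 5.82, 5.77 and 7.28 in vehicle kidneys, 5.57 and 5.35 at 0.1 mg/kg, 5.91 and 10.04 at 1 mg/kg, 5.67 and 5.54 at 10 mg/kg, 5.78 and 6.07 at 100 mg/kg, 5.78, 8.21 and 6.07 at 300 mg/kg; the 3 kidneys given 500 mg/kg read 5.72, 8.74 and 5.44. The 4 arrays with the highest *Ucp1* were also the 4 with the highest *Cidea*, with a gap of 1.21 to the next. The order among them was the same for both genes, although *Ucp1* at 300 and at 500 mg/kg rounds to the same 9.86.

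The secreted proteins were high in 5 arrays. *Cfd* read 3.52, 6.81 and 6.89 in vehicle kidneys, 4.00 and 3.49 at 0.1 mg/kg, 4.77 and 8.52 at 1 mg/kg, 3.93 and 3.98 at 10 mg/kg, 4.20 and 3.79 at 100 mg/kg, 3.55, 7.09 and 4.39 at 300 mg/kg; the 3 kidneys given 500 mg/kg read 4.58, 7.60 and 3.85. The extra array was vehicle replicate 2, the kidney array with high *Xist*. It stood 2.05 above the highest of the other 12 for *Cfd* while its *Ucp1* and *Cidea* stayed among the low arrays. *Adipoq* read 5.28, 6.40 and 6.32 in vehicle kidneys, 5.15 and 4.99 at 0.1 mg/kg, 5.87 and 7.99 at 1 mg/kg, 5.15 and 4.94 at 10 mg/kg, 5.19 and 5.23 at 100 mg/kg, 5.23, 6.36 and 5.07 at 300 mg/kg; the 3 kidneys given 500 mg/kg read 5.49, 6.60 and 5.10. Its 5 highest arrays were the same 5, the lowest of them 0.45 above the next, and vehicle replicate 2 exceeded vehicle replicate 3.

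The lipid handling genes differed between probe sets. *Fabp4*, the fatty acid carrier of fat cells that endothelial cells and macrophages also make, read 6.02, 8.41 and 9.14 in vehicle kidneys, 6.20 and 5.67 at 0.1 mg/kg, 7.66 and 11.50 at 1 mg/kg, 7.34 and 6.37 at 10 mg/kg, 5.79 and 7.68 at 100 mg/kg, 6.82, 9.74 and 6.80 at 300 mg/kg; the 3 kidneys given 500 mg/kg read 7.16, 10.32 and 6.36. The same 5 arrays were highest, and the other 12 still spanned 2.00, wider than for the other members. *Plin1*, the perilipin of the fat cell droplet, has 2 probe sets that disagree. The second probe set read 3.60, 4.53 and 5.05 in vehicle kidneys, 3.58 and 3.48 at 0.1 mg/kg, 3.28 and 7.05 at 1 mg/kg, 3.43 and 3.41 at 10 mg/kg, 3.46 and 3.31 at 100 mg/kg, 3.78, 5.82 and 3.59 at 300 mg/kg; the 3 kidneys given 500 mg/kg read 3.74, 6.18 and 3.47, again with the same 5 highest. The first one stands for the gene by the rule used, the higher kidney mean, though these means hardly differ. It lay between 4.03 and 4.48 in every kidney and followed none of this.

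**Figure D1:**
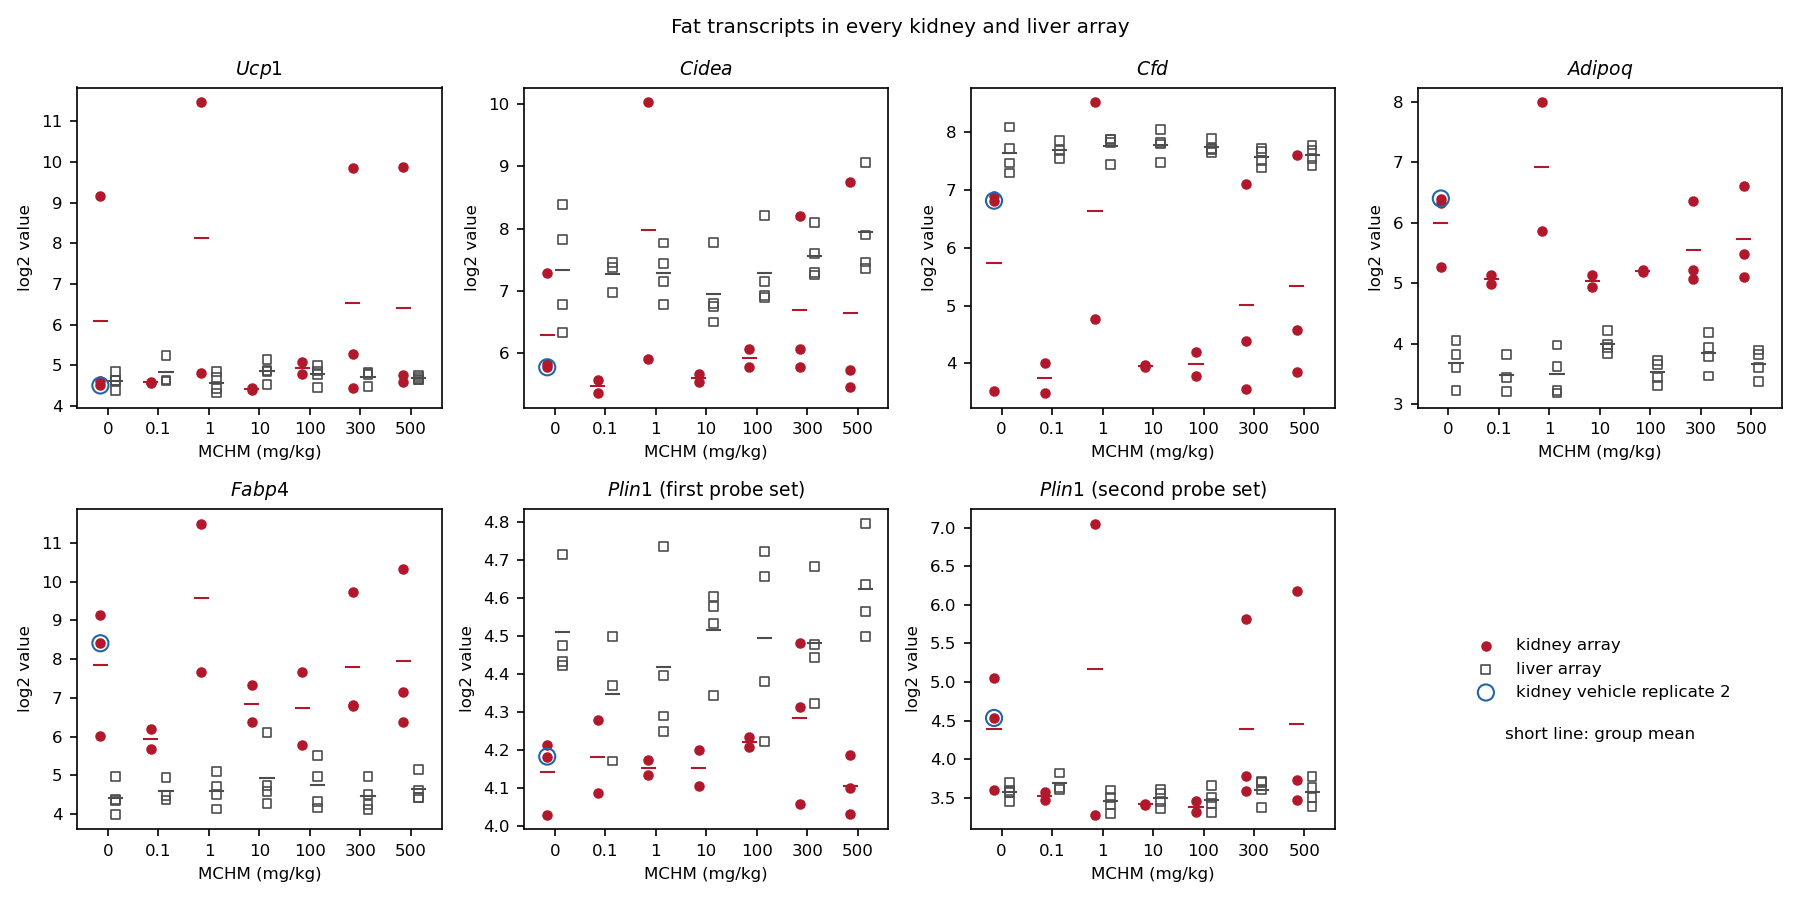
Log2 value (vertical axis) of each of the 7 probe sets against MCHM dose (mg/kg, horizontal axis, categories), with filled circles for the 17 kidney arrays, open squares for the 27 liver arrays and short lines for group means. Single kidney arrays at 0, 1, 300 and 500 mg/kg lie high for all probe sets but the first one of *Plin1*, and the ringed vehicle replicate 2 is high for *Cfd* (6.81), *Adipoq* and *Fabp4* but not for *Ucp1* (4.50) or *Cidea*.

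Much of the spread lay between arrays of the same dose. The within-group SD of *Ucp1* was 2.68, the highest of all 31042 probe sets. *Fabp4* ranked 11th, *Cfd* 12th, *Cidea* 20th, the second *Plin1* probe set 28th and *Adipoq* 167th in this measure. Dose groups held 23.3% of the sum of squares of *Ucp1*, 30.4% for *Cidea*, 33.4% for *Cfd*, 36.0% for *Fabp4* and 50.9% for *Adipoq*, against a median of 39.0% over all probe sets. These genes were chosen for such differences between arrays.

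**Figure D2:**
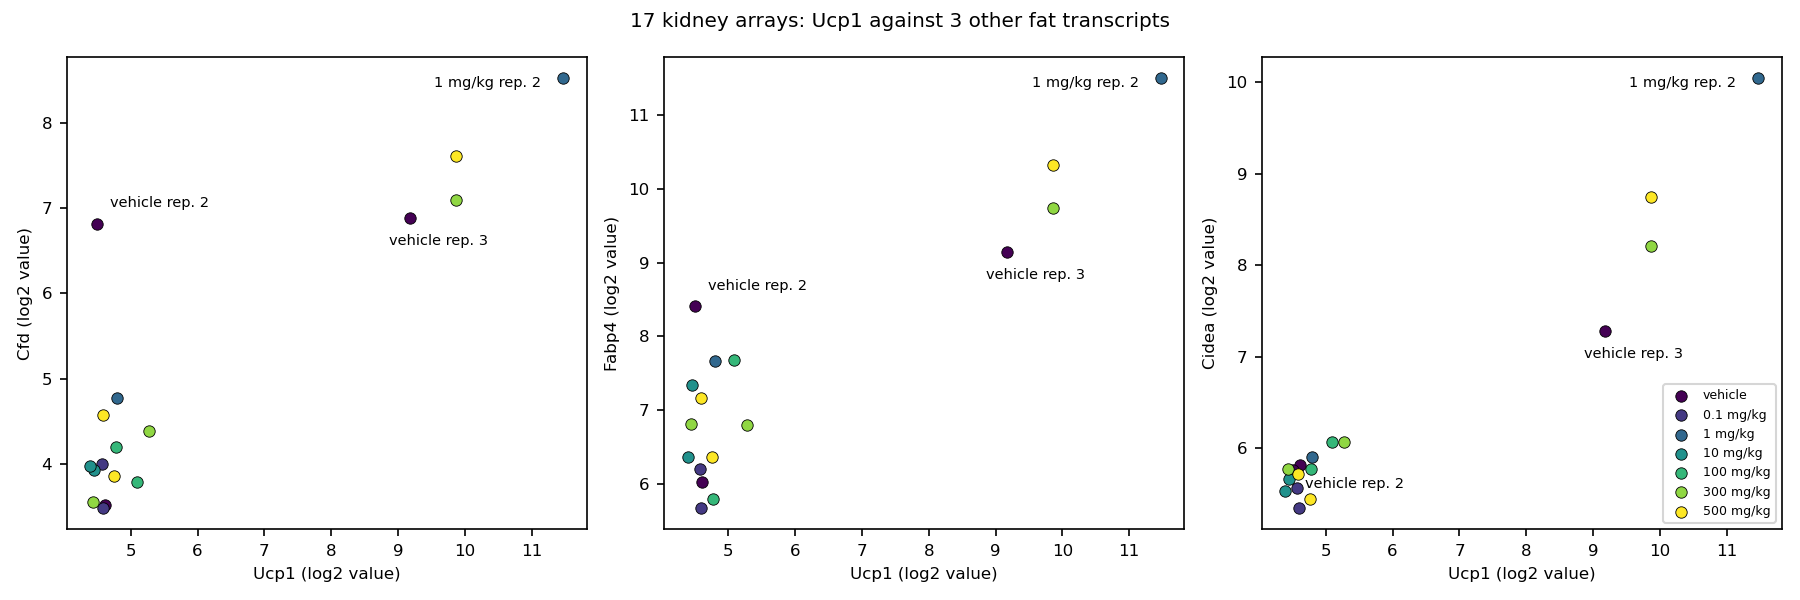
*Ucp1* (horizontal axis, log2 value) against *Cfd*, *Fabp4* and *Cidea* (vertical axes, log2 value) in the 17 kidney arrays, coloured by dose. Of these, 4 arrays lie at the upper right in each panel, and vehicle replicate 2 lies at the level of the low arrays for *Ucp1* (4.50) but high for *Cfd* (6.81) and *Fabp4* (8.41).

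Within the 12 arrays outside those 5, the members went together less closely, as a description over 12 arrays that share probes and normalization. Pearson r was 0.68 for *Ucp1* with *Cidea*, 0.62 for *Cfd* with *Adipoq*, 0.59 for *Cidea* with *Fabp4* and 0.58 for *Adipoq* with *Fabp4*, but 0.10 for *Ucp1* with *Adipoq* and 0.33 for *Ucp1* with *Cfd*. Spearman rho for *Cfd* with *Adipoq* was 0.24 over the same arrays. Both genes were highest of these 12 in 1 mg/kg replicate 1 (4.77 and 5.87), the array with hepatocyte transcripts. In 27 livers the same pairs had r between -0.33 (*Cidea* with *Fabp4*) and 0.10 (*Ucp1* with *Cfd*).

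A further 12 genes were closest to the mean standardised profile of the 6 members over 17 kidney arrays, of 3798 genes with an SD of at least 0.2. They were *Thrsp*, a regulator of fat synthesis (Pearson r = 0.96), *Cox8b* (0.95), the amine oxidase *Aoc3* of fat and vessel cells (0.94), lipoprotein lipase *Lpl* (0.93), the perilipin *Plin4* (0.92), the caveolae protein *Cav1* (0.91), the calcium-binding *S100b* (0.90), *Grifin* (0.89), fatty acid synthase *Fasn* (0.88), the amino acid transporter *Slc36a2* (0.87), the cation transporter *Slc22a3* (0.87) and *Cpt1b*, which carries fatty acids into mitochondria (0.86). Since 4 arrays lie far from the other 13, r over those 13 is given beside it: it was 0.81 for *S100b*, 0.74 for *Thrsp*, 0.68 for *Aoc3*, 0.55 for *Cav1*, 0.54 for *Lpl*, 0.33 for *Cpt1b* and 0.28 for *Cox8b*, and the other 5 genes fell below the SD of 0.2 there. These 13 include vehicle replicate 2, the highest of them for *S100b* (5.78), *Thrsp* (6.30), *Aoc3* (6.70), *Cav1* (8.26) and *Lpl* (8.28). It was not the highest for *Cpt1b* (5.89) or *Cox8b* (4.10). How far these r values rest on that array was not tested. By Spearman rho, or without those 4 arrays, 1 of the 12 was again among the closest 12. *Plin1* entered the profile by its first probe set, which did not follow the other members. With its second probe set instead, 10 of the 12 were again among the closest 12.

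*Thrsp* and *Cox8b* show both patterns. *Cox8b* read 6.72, 9.37, 7.73 and 7.96 in the 4 arrays with high *Ucp1* (vehicle, 1, 300 and 500 mg/kg) and between 4.02 and 4.78 in the other 13, with 4.10 in vehicle replicate 2. *Thrsp* read 8.03, 10.18, 7.64 and 8.48 in the same 4, 6.30 in vehicle replicate 2, 5.22 in the array with hepatocyte transcripts and between 2.96 and 4.45 in the other 11. So *Cox8b* sided with *Ucp1* and *Thrsp* with *Cfd*. Livers read 3.53 to 4.41 for *Cox8b* and 9.48 to 11.81 for the same *Thrsp* probe set.

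**Figure D3:**
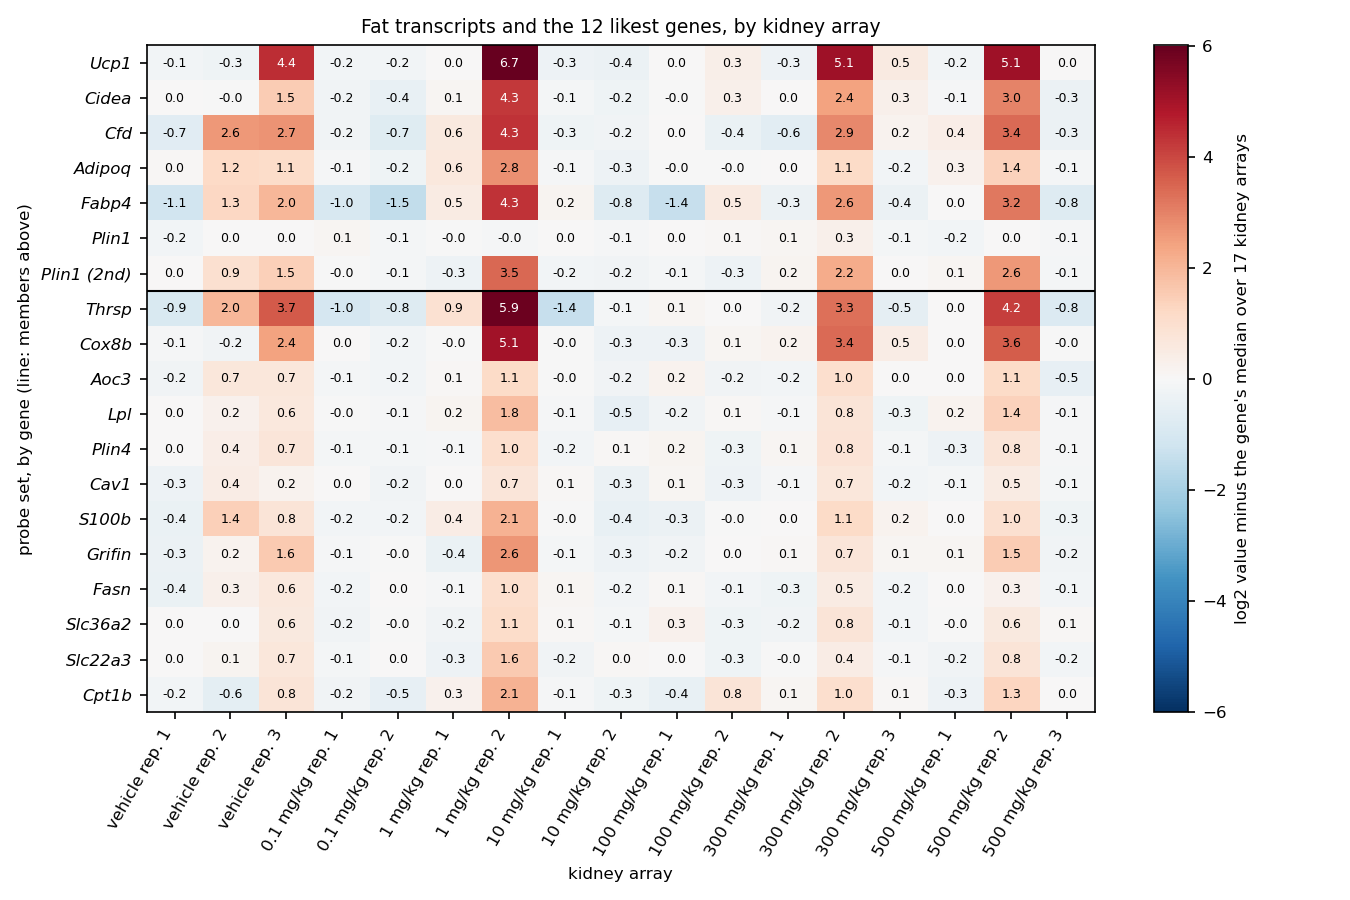
Each cell is a log2 value minus the median of that probe set over the 17 kidney arrays (colour), with the 7 member probe sets above the line, where "2nd" marks the second *Plin1* probe set, the 12 closest genes below it and arrays in order of dose. The columns of vehicle replicate 3 and of replicate 2 at 1, 300 and 500 mg/kg are raised throughout apart from the first *Plin1* probe set, and vehicle replicate 2 is raised for *Cfd*, *Adipoq*, *Fabp4*, *Thrsp* and *S100b* but not for *Ucp1* or *Cox8b*.

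Other genes of fat biology were read from lists written down for this purpose. Of 32 adipocyte genes other than the members, 31 were measured, and 14 of them were highest in 1 mg/kg replicate 2, as were 944 of all 14217 named genes. For 7 of the 31 (22.6%) the 4 highest kidney values lay in the 4 arrays with high *Ucp1*, which held for 42 of the 14217 (0.30%). The median over the 31 genes was 7.29, 7.54, 7.25 and 7.24 in the 4 arrays, and at most 7.02 elsewhere (1 mg/kg replicate 1). *Car3*, a carbonic anhydrase abundant in fat, muscle and male liver, had the widest range: 10.01, 10.74, 9.74 and 11.05 in those 4 arrays, 9.79 in vehicle replicate 2, 8.57 in the array with hepatocyte transcripts and 3.59 to 7.24 in the other 11. Its level in liver was 13.65 to 14.04. The insulin-regulated glucose carrier *Slc2a4* ranged from 4.14 to 7.21 and was highest in 1 mg/kg replicate 2, and second in the array with hepatocyte transcripts (6.33). Leptin (*Lep*), a hormone of white fat cells, stayed between 3.62 and 4.20 in every kidney and was lowest in 1 mg/kg replicate 2.

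Of 24 brown fat genes other than the members, 20 were measured. *Cox8b* was the one of these with all 4 highest values in the 4 arrays (1 of 20). The median over the 20 genes was 6.42, 6.62, 6.45 and 6.40 in the 4 arrays and at most 6.11 in the other 13. *Cpt1b* read 7.27, 8.60, 7.49 and 7.77 there and 5.89 to 7.27 in the other 13, with 100 mg/kg replicate 2 at the top of those. *Ppara*, the nuclear receptor for fatty acids, ranged from 3.75 to 5.53, highest in 300 mg/kg replicate 3. Among 20 relatives of the members, the droplet protein *Cidec* read 7.27 to 9.46, with 500 mg/kg replicate 2 highest and vehicle replicate 2 at 7.61. *Fabp1*, the fatty acid carrier of liver, read 7.75 in the array with hepatocyte transcripts and 2.90 to 3.81 in the others, and *Fabp5* ranged from 8.00 to 10.21, highest in 100 mg/kg replicate 2.

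Partners of the secreted members were read next. Of 7 measured genes of the alternative complement pathway, which the protease encoded by *Cfd* starts, 0 had their 4 highest values in the 4 arrays. *C3*, *Cfi* and *Masp1* had the widest ranges (5.95 to 7.80, 4.16 to 5.69 and 4.91 to 5.93), and *C3* and *Cfi* were highest in the array with hepatocyte transcripts. Of 5 genes of adiponectin reception, 0 did so either, and with 0.30% of all named genes doing so, counts of 0 among 7 and 5 say nothing particular about them. The receptor *Adipor2* ranged from 6.53 to 7.90, the adiponectin-binding *Cdh13* from 3.87 to 5.09 and the adaptor *Appl2* from 7.45 to 8.00.

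Markers of other cells near the kidney were set beside these arrays. The median of 5 adrenal cortex markers lay between 4.05 and 4.79 over all 17 arrays, that of 5 adrenal medulla markers between 3.50 and 3.94, that of 9 skeletal muscle markers between 3.47 and 3.78 and that of 6 pancreatic acinar markers between 4.03 and 4.32. Medians spanned 5.94 to 6.44 for smooth muscle, 6.22 to 7.18 for mesothelium, 3.63 to 4.22 for urothelium, 4.19 to 4.71 for lymphocytes, 5.66 to 6.63 for macrophages and 9.92 to 10.72 for red blood cells. For none of these lists did the 4 arrays with high *Ucp1* hold the 4 highest medians. Markers with the widest range in their lists were *Hsd3b1* (4.61 to 5.95), *Mrc1* (3.49 to 4.78), *Msln* (5.01 to 6.46) and the urothelial *Upk1b* (3.21 to 5.83, highest in 100 mg/kg replicate 2).

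Kidney cell types varied too. The median of 7 fibroblast markers was 9.07, 9.12, 9.01 and 9.11 in the 4 arrays with high *Ucp1* and 9.03 in vehicle replicate 2. In the other 12 it lay between 8.46 and 9.31, above those 5 in 1 mg/kg replicate 1 (9.31) and 10 mg/kg replicate 1 (9.19) and at most 8.87 in the remaining ones. For 7 endothelial markers the median was 8.36, 8.01, 8.12 and 8.08 in the 4 arrays, 8.44 in vehicle replicate 2 and 7.67 to 8.37 in the other 12. The matrix gene *Lum* of fibroblasts read 5.99 in vehicle replicate 2, 5.83 in 1 mg/kg replicate 2 and 3.79 at its lowest. The thick ascending limb list had medians of 10.65, 10.56 and 10.70 in replicate 2 at 1, 100 and 500 mg/kg but 9.72 in replicate 2 at 300 mg/kg, and its channel gene *Kcnj1* ranged from 6.47 to 8.55. All 4 markers of that list were highest in one of the 4 arrays, *Umod* in 1 mg/kg replicate 2 and the other 3 in 500 mg/kg replicate 2, as were 31.8% of all named genes. The part of these cell types in the fat transcript values was not tested.

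**Figure D4:**
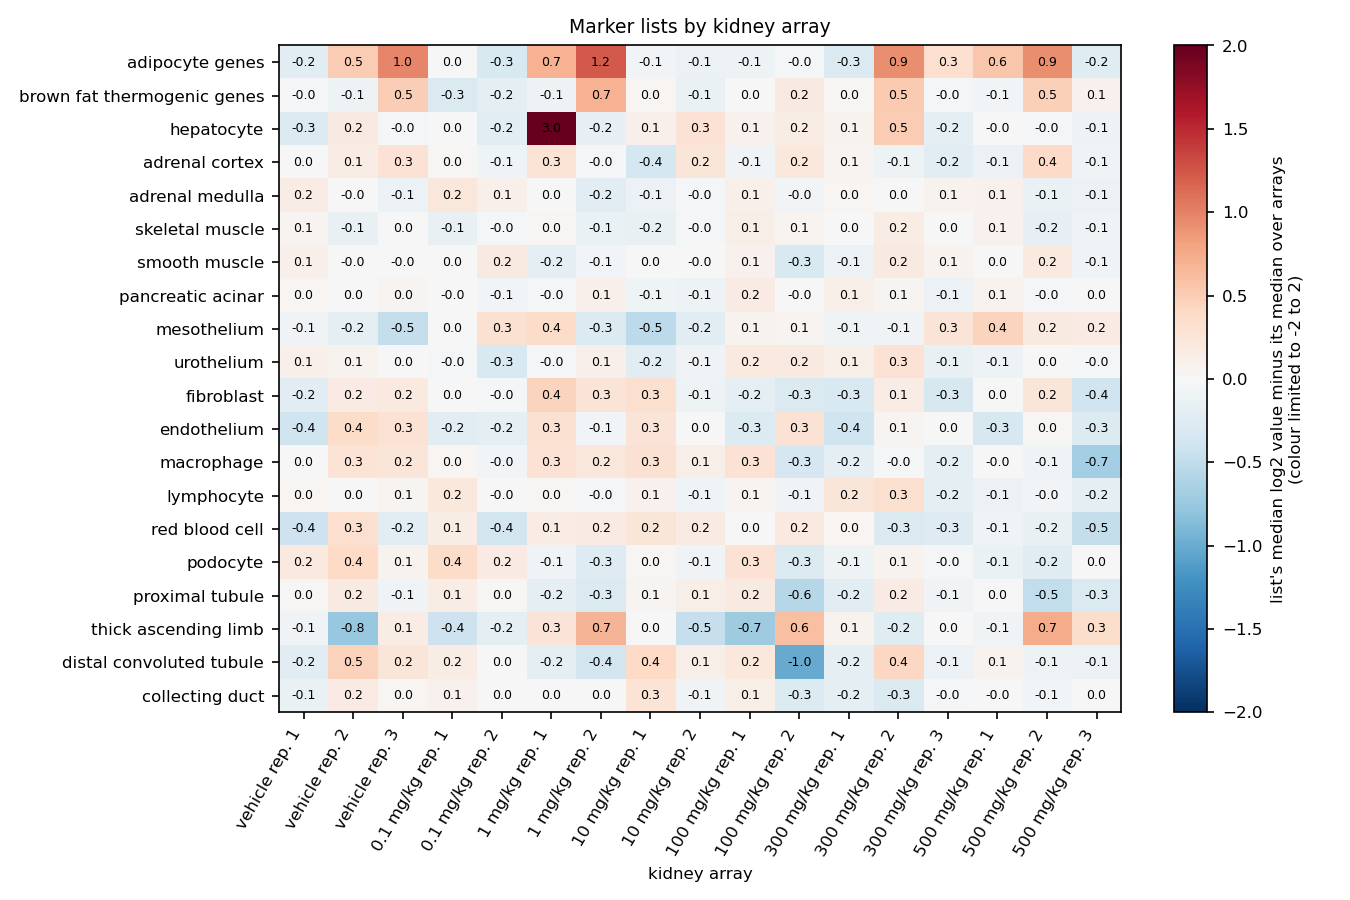
Median log2 value of each marker list minus the median of that list over the 17 kidney arrays (colour, with the value in each cell), for fat lists in the top 2 rows and other cell types below. The adipocyte row is raised in vehicle replicates 2 and 3, in both 1 mg/kg arrays, in 300 mg/kg replicates 2 and 3 and in 500 mg/kg replicates 1 and 2, and the hepatocyte row is raised most in 1 mg/kg replicate 1 (median 7.38).

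Dose comparisons of kidney ask which transcripts differ from vehicle. For the members, the difference between 500 mg/kg and vehicle means was 0.31 (SE 1.84) for *Ucp1*, from 6.10 ± 2.67 (SD, n = 3) to 6.40 ± 3.00 (SD, n = 3). It was 0.35 (SE 0.98) for *Cidea*, -0.39 (SE 1.18) for *Cfd*, -0.27 (SE 0.51) for *Adipoq*, 0.09 (SE 1.19) for *Fabp4* and -0.04 (SE 0.11) for *Plin1*. At 300 mg/kg it was 0.43 (SE 1.84) for *Ucp1*, 0.40 (SE 0.98) for *Cidea*, -0.73 (SE 1.18) for *Cfd*, -0.44 (SE 0.51) for *Adipoq* and -0.07 (SE 1.19) for *Fabp4*. *Plin1* differed by 0.14 (SE 0.11) at 300 mg/kg by its first probe set, and by 0.00 and 0.07 (SE 0.87 each) at 300 and 500 mg/kg by its second. The genes were chosen for their spread between arrays, which enters these SEs, so nothing is read from the size of a difference beside its SE. At 1 mg/kg *Ucp1* differed by 2.04 (SE 2.06), from its 2 arrays at 4.80 and 11.47, and at 0.1, 10 and 100 mg/kg, where no array was high, by -1.51, -1.67 and -1.16 (SE 2.06 each). All doses were compared with the same 3 vehicle arrays.

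The sign of the *Ucp1* difference changed with single arrays. At 500 mg/kg it was 1.84 without vehicle replicate 3, -1.43 without 500 mg/kg replicate 2, and 0.11 without all 4 arrays with high *Ucp1*. At 300 mg/kg it was 1.97 without vehicle replicate 3 and -1.24 without 300 mg/kg replicate 2. The *Cfd* difference at 500 mg/kg was -1.52 without 500 mg/kg replicate 2, -0.95 without the 4 arrays and 0.70 without these and vehicle replicate 2. That last value has vehicle replicate 1 (3.52) as its only vehicle array. The 4 arrays come from the vehicle group as well as from 3 doses, and the 0.1, 10 and 100 mg/kg groups, of 2 arrays each, held none.

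**Figure D5:**
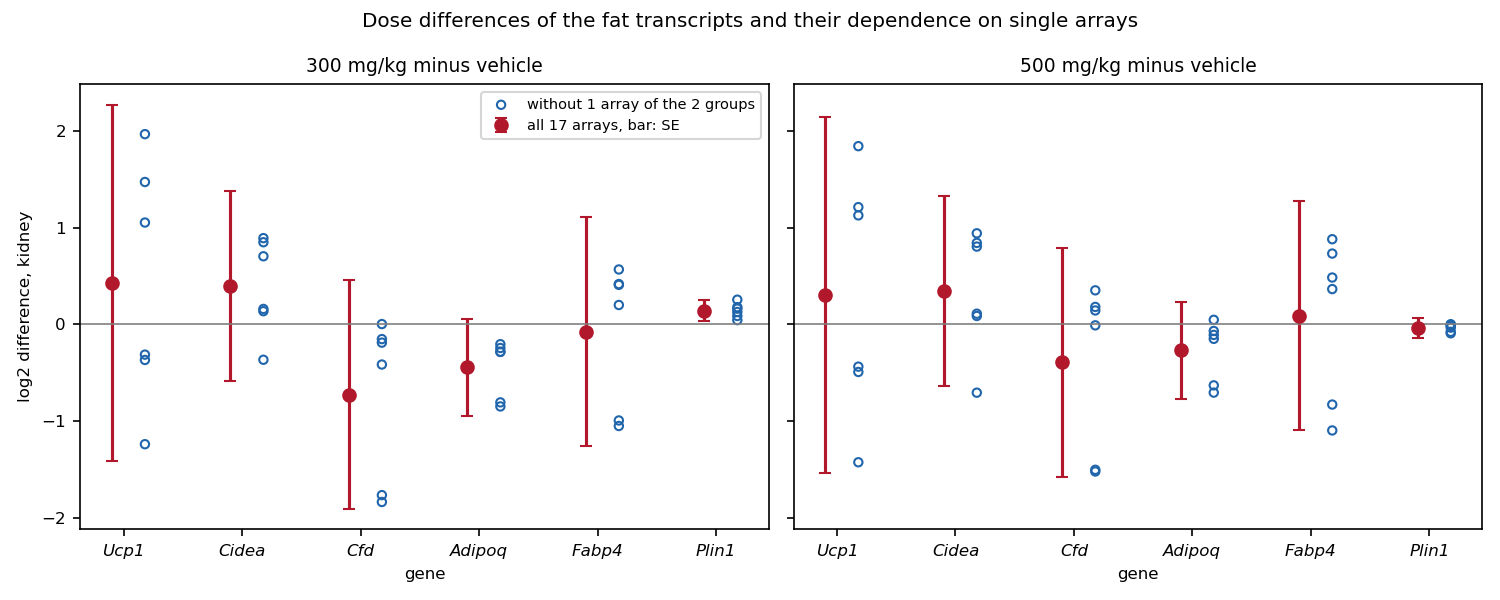
Log2 difference of kidney group means, dose minus vehicle (vertical axis), for each gene at 300 mg/kg (left) and 500 mg/kg (right). Filled points with bars are the value over all 17 arrays and its SE, and open points are the value with 1 of the 6 arrays of the compared groups left out, such as 1.84 and -1.43 for *Ucp1* at 500 mg/kg.

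Across all probe sets, limma with Benjamini-Hochberg adjustment called 0 of 31042 at 500 mg/kg against vehicle in kidney (0%; 3131 at an unadjusted p under 0.05), 0 at 300 mg/kg (0%; 1123) and 0 in an F-test among the 7 dose groups (0%; 1630), where 1552.1 would fall under 0.05 by chance. None of the 31 adipocyte, 20 brown fat, 20 relative, 7 complement and 5 adiponectin reception genes was therefore called in these 3 kidney comparisons. At 500 mg/kg 8 of the 31 adipocyte genes lay above vehicle, with a median difference of -0.17. So did 14 of 20 brown fat genes, with a median of 0.06, against a median of -0.01 over all 31042 probe sets. At 300 mg/kg the counts were 8 and 16 and the medians -0.11 and 0.14, against 0.00. These counts have no share of all genes beside them. *Cfd* was high in vehicle replicates 2 and 3, but only in replicate 2 of each of these dosed groups. The median of the 31 adipocyte genes was 6.11, 6.83 and 7.29 in the vehicle arrays. It was 6.03, 7.25 and 6.66 in the 300 mg/kg group, then 6.87, 7.24 and 6.08 in the 500 mg/kg group. Whether the counts follow dose or this uneven spread of arrays was not tested. At 500 mg/kg *Thrsp* differed by -0.47, less than its SE, and *Cox8b* by 0.51 (SE 1.24). Both were singled out by their likeness to the members over these same arrays. Their spread came with that choice, so no p-value is given and nothing is read from these differences beside their SEs.

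Counts of calls over the whole kidney table moved with single arrays. Without vehicle replicate 1, the one vehicle array in which neither *Ucp1* nor *Cfd* was high, 616 probe sets were called at 500 mg/kg, 103 at 300 mg/kg and 101 in the F-test. Without 1 mg/kg replicate 2 the F-test called 41, and without all 4 arrays with high *Ucp1* it called 38, of which 37 were highest in 1 mg/kg replicate 1, then the one array left at that dose and the one with hepatocyte transcripts. Leaving out the 5 arrays with high *Cfd* left vehicle replicate 1 as the only vehicle array. Its counts of calls are listed with the processing, and nothing is read from them. Without the 4 arrays 1 probe set was called at 300 mg/kg (*Resp18*) and 1 at 500 mg/kg (*Prcp*), both named after their values were seen.

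Liver was tested as well. The members were chosen by their kidney values, but with earlier results of these data known. How far the liver tests are free of that choice is therefore not known. *Ucp1* lay between 4.32 and 5.24 with a median of 4.70, *Adipoq* between 3.19 and 4.23 with a median of 3.73, and *Fabp4* between 3.98 and 6.09 with a median of 4.49, highest in 10 mg/kg replicate 4. *Cfd* was steady between 7.29 and 8.09, with a median of 7.69. The 2 *Plin1* probe sets lay between 4.17 and 4.80 and between 3.29 and 3.82.

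*Cidea* varied most among the members in liver, from 6.33 to 9.06 with a median of 7.36, and ranked 112th of all probe sets by its SD within groups (0.62). Vehicle livers read 8.38, 7.83, 6.78 and 6.33, and those at 500 mg/kg 7.46, 7.90, 7.36 and 9.06, so the groups overlapped. The difference was 0.61 (SE 0.39, limma adjusted p = 0.702), from 7.33 ± 0.94 (SD, n = 4) to 7.94 ± 0.78 (SD, n = 4). The liver genes closest to it over 27 arrays, chosen after their values were seen, were the peptidase *Mme* (r = 0.70), the methyltransferase *Inmt* (0.65) and *Tcea3* (0.64).

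At 500 mg/kg against vehicle in liver, 55 of 31042 probe sets passed the threshold of 0.05 (0.177%), 37 higher and 18 lower, and 46 (0.148%) passed the F-test among dose groups. None of the 7 member probe sets was among them. The F-test gave adjusted p = 0.884 for *Ucp1*, 0.826 for *Cidea*, 0.942 for *Cfd*, 0.656 for *Adipoq*, 0.957 for *Fabp4*, and 0.887 and 0.826 for *Plin1*. At 500 mg/kg the difference was 0.06 (SE 0.15, adjusted p = 0.949) for *Ucp1*, -0.03 (SE 0.14, adjusted p = 0.978) for *Cfd* and 0.23 (SE 0.32, adjusted p = 0.890) for *Fabp4*. Of the 31 adipocyte genes 1, *Thrsp*, passed the F-test in liver (adjusted p = 0.0181), as did 1 of the 20 relatives. At 500 mg/kg 1 of the 20 relatives was called, *Fabp7*, which fell by 0.72 (limma adjusted p = 3.61e-04). These lists were written with earlier results of these data known. With 4 arrays a group, the precision of each difference is limited by their number.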

How the data were processed

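Total RNA of 17 kidneys and 27 livers was hybridised to Affymetrix Rat Genome 230 2.0 arrays, per the labels' protocols. The authors deposited log2 values made by RMA, per the submitters' processing notes; the RMA version, and joint or separate normalization of the organs, were not given in the sources used here. Per the series' design text, samples with batch effects had been removed. The quantile step of RMA hides a shift of all transcripts. For each organ, all 7 dose groups entered a single fit with limma 3.58.1 (R 4.3.3) over 31042 probe sets (57 controls left out), two-sided, with Benjamini-Hochberg adjustment and a threshold of 0.05. It was tested on simulated data. In kidney at 500 mg/kg, over 31042 probe sets, it recovered 89 of 100 planted changes of 1 log2 unit. Of those of 2 units it recovered 100 of 100, with 9 false calls beside both. At 300 mg/kg these were 90, 99 and 12. The simulated noise was drawn independently for each probe set and array, without deviations shared by a whole array. Real kidney arrays did stand apart as wholes, so recovery under such deviations was not tested. The probe set of a gene with the highest organ mean was used, and 20758 symbols were matched to the rat gene table of assembly GRCr8. The members and lists were chosen with earlier results of these data known. Named are the members, the 12 genes closest to their profile, the 3 list genes with the widest kidney range if none passed, and per marker list its median, with the marker of widest range where it bears on a result. At 10 mg/kg, 1 kidney title lacks a replicate number, and that array was numbered in accession order. Alternatives changed the probe sets fitted, the normalization, the replicate block, the groups in the fit and the arrays left out. The count of columns from other samples was 0. Python 3.11.15 drew the plots.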

Additional observations from a re-analysis of the deposited data

Results flagged for a closer look

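*Cfd* in liver 1 mg/kg replicate 1 read 7.44, while the other 3 livers of that dose lay between 7.83 and 7.88. Its gap to the nearest of them, 0.88 of the range of the group, is above the critical value for 4 arrays. Chance flags about 1 in 20 groups, and 42 groups of liver arrays were looked at over the 6 genes.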

How the results depend on the processing

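The members were among the 31042 probe sets fitted in kidney, where none was called with all arrays; their p-values are not given because their kidney values chose them. Of the counts of calls, kidney stayed at 0 in all 3 comparisons with the above-median filter, a second quantile normalization and the replicate block; the 2-group fit also called 0 at 300 and 500 mg/kg. With 1 array left out the lowest count was 0 in each, and the highest was 616 for 500 mg/kg, 103 for 300 mg/kg and 101 among the 7 dose groups. Sets of arrays left out were chosen after seeing the data: without the 4 arrays with high *Ucp1* the counts were 1, 1 and 38, without the 5 with high *Cfd* 0, 1 and 40, and without the array with hepatocyte transcripts 0, 0 and 1. Leaving out any of these sets leaves 1 array at 1 mg/kg, and without the 5 the vehicle group is 1 array too. A group of 1 array has no spread of its own, so nothing about dose is read from counts that rest on it. In liver the 55 calls at 500 mg/kg became 104 with the above-median filter, which tests fewer probe sets. They became 1 in the 2-group fit, which has fewer arrays, 42 with the replicate block and 9 to 84 with 1 array left out. The 46 among dose groups became 89 with that filter, 51 with the replicate block and 13 to 55 with 1 array left out.

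Same-numbered arrays did not all deviate together (r of deviations -0.35 to 0.36, mean 0.026, over 33 kidney pairs, and -0.14 to 0.23, mean 0.022, over 78 liver pairs), so the numbers were not taken as pairs. Of the 4 arrays with high *Ucp1* 3 are replicate 2, as are 4 of the 5 with high *Cfd*. Of the 12 genes closest to the members, 1 was again among them by Spearman rho, 1 without the 4 arrays, and 8 to 12 with 1 array left out.

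The range over kidney arrays without the 4 and without the 5 arrays was 0.88 in both cases for *Ucp1* (main value 7.08). It was 0.71 in both for *Cidea* (4.68) and 0.28 in both for *Plin1* (0.45). In the same order it was 1.47 and 0.93 for *Adipoq* (3.06), 2.73 and 2.00 for *Fabp4* (5.83), and 3.32 and 1.28 for *Cfd* (5.03). With 1 array left out the range was 5.47 to 7.08 for *Ucp1*, 3.39 to 4.68 for *Cidea*, 4.11 to 5.03 for *Cfd*, 1.67 to 3.06 for *Adipoq*, 4.65 to 5.83 for *Fabp4* and 0.28 to 0.45 for *Plin1*, whose 2 probe sets averaged gave 1.86. Signal over background was not available here, so how far RMA compresses the low values was not tested.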
